A study of Mus musculus with 8 samples.

Results

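The BTG and TOB genes encode a small family of adaptor proteins that bind the CNOT7 and CNOT8 deadenylases of the CCR4-NOT complex. The family was examined at the RNA level in mouse oocytes that lack both of these enzymes. Its members were taken by gene symbol from the deposited count table, and all 6 of them (Btg1, Btg2, Btg3, Btg4, Tob1 and Tob2) were found among the 46078 genes listed. RNA-seq libraries came from fully grown germinal vesicle (GV) stage oocytes of 2 groups, with 4 libraries in each and 100 oocytes in each library. The CNOT7&8 KO group carried floxed Cnot7 and Cnot8 together with Zp3-Cre, a transgene in which the promoter of the zona pellucida gene Zp3 drives Cre recombinase in growing oocytes. The Zp3-Cre group, here called control, carried the transgene and is not labelled with any floxed allele. Per the study's methods, the females were 4 weeks old, had a C57BL/6J background and had received PMSG 48 h before collection, and the oocytes were held in dbcAMP, which keeps them at the GV stage. The labels list the libraries as separate samples but name no animals, so the p-values below measure the spread between these libraries, which may be partly technical.

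BTG and TOB proteins share an N-terminal APRO domain that binds CNOT7 or CNOT8 and so links the CCR4-NOT deadenylases to mRNAs. Tob1 and Tob2 also carry motifs for the cytoplasmic poly(A)-binding protein, whereas Btg1 and Btg2 are short proteins known as inducible inhibitors of proliferation. Btg4 is the oocyte member, known for its part in the clearance of maternal mRNA during meiotic maturation. The 3′UTRs of the 6 mRNAs are of interest because maternal mRNAs are controlled through elements located there, such as the cytoplasmic polyadenylation element (CPE, UUUUAU), the AU-rich element (ARE, AUUUA) and the Pumilio element (PRE, UGUAAAUA).

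Each member has its own locus in GRCm38, the genome to which the authors mapped the reads. In the GENCODE vM21 annotation, Btg4 (ENSMUSG00000032056) lies at 51060901 to 51119875 of chromosome 9 (plus strand). Tob1 (ENSMUSG00000037573) lies at 94211454 to 94215495 of chromosome 11 (plus strand), and Tob2 (ENSMUSG00000048546) at 81848272 to 81858796 of chromosome 15 (minus strand). Btg1 (ENSMUSG00000036478) lies at 96617006 to 96622809 of chromosome 10 (plus strand), and Btg2 (ENSMUSG00000020423) at 134075170 to 134079120 of chromosome 1 (minus strand). Btg3 (ENSMUSG00000022863) lies at 78332637 to 78377192 of chromosome 16 (minus strand), where 695 bases of its exons are also exonic in Cxadr on the opposite strand. Exons of Tob2 share 289 bases with the antisense gene Gm49476. No exon base of the other 4 members was shared with another gene.

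The longest annotated 3′UTR differed widely among members. It measured 521 bases in Btg4 and 767 in Tob1, and between 2199 and 4166 bases in the remaining members. Btg4 held 3 copies of the CPE in its short 3′UTR (5.76 per kb), 4 copies of the ARE and 2 of the polyadenylation signal AAUAAA. The CPE at position 134 lies upstream of both AAUAAA, at positions 200 and 231, and the CPEs at 406 and 455 lie downstream of them. Among the 1551 3′UTRs of tested genes whose length was 0.8 to 1.25 times that of Btg4, 33.2% had at least 1 CPE and 2.39% had 3 or more. The Tob1 3′UTR had 1 CPE and 3 AREs, the AREs at positions 244, 334 and 339, so that the last pair directly follow each other. The Tob1 CPE, at position 279, lies downstream of the only AAUAAA of that 3′UTR, at position 144. Of the 1966 3′UTRs of like length, 43.2% had a CPE and 17.2% had 3 or more AREs. The CPE sites of both genes are shown because Btg4 was the most abundant member and Tob1 the member with the largest change. They are written as DNA, 5′ to 3′ on the mRNA strand, with the CPE in capitals, at positions 134, 406 and 455 of the Btg4 3′UTR and position 279 of the Tob1 3′UTR, counted from 1 after the stop codon. The windows are chr9:51119477-51119504, chr9:51119749-51119776, chr9:51119798-51119825 and chr11:94214996-94215023, all on the plus strand.
Btg4 CPE 1: tttatgtaaaaTTTTATgaacactagtg
Btg4 CPE 2: taaccagtctaTTTTATaaatctgttaa
Btg4 CPE 3: gataaatccctTTTTATgtctttttaaa
Tob1 CPE: ctgaattttttTTTTATaaaaaattggc

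Every member carried at least 1 CPE and at least 3 AREs in its longest 3′UTR. Among 3′UTRs of like length to those of Btg1, Btg2, Btg3 and Tob2, 88.8%, 75.7%, 79.7% and 78.5% held a CPE and 97.3%, 90.0%, 92.0% and 91.7% at least 1 ARE. In the same order, 20.95%, 34.23%, 41.72% and 51.37% held at least as many AREs as the member itself. In all 15157 annotated 3′UTRs of at least 50 bases among tested genes, 56.2% held a CPE, 70.4% an ARE, 80.5% the signal AAUAAA and 11.8% a PRE. Btg1, with the longest 3′UTR, held 4 CPEs and 11 AREs and was the only one of the 6 with a PRE. Btg2 had 1 CPE and 5 AREs, Btg3 had 2 CPEs and 5 AREs, and Tob2 had 2 CPEs and 4 AREs and no AAUAAA, where the CPE at position 1792 overlaps the ARE at position 1796. The CPE of Btg2 lies at position 1960, upstream of its only AAUAAA at position 2018, in the window chr1:134075393-134075420 of the minus strand.
Btg2 CPE: tataatagcgcTTTTATatggaagactg
These matches describe the sequence only. Usage of the sites was not measured, and the 3′ end used in oocytes may differ from the annotated one.

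**Figure D1:**
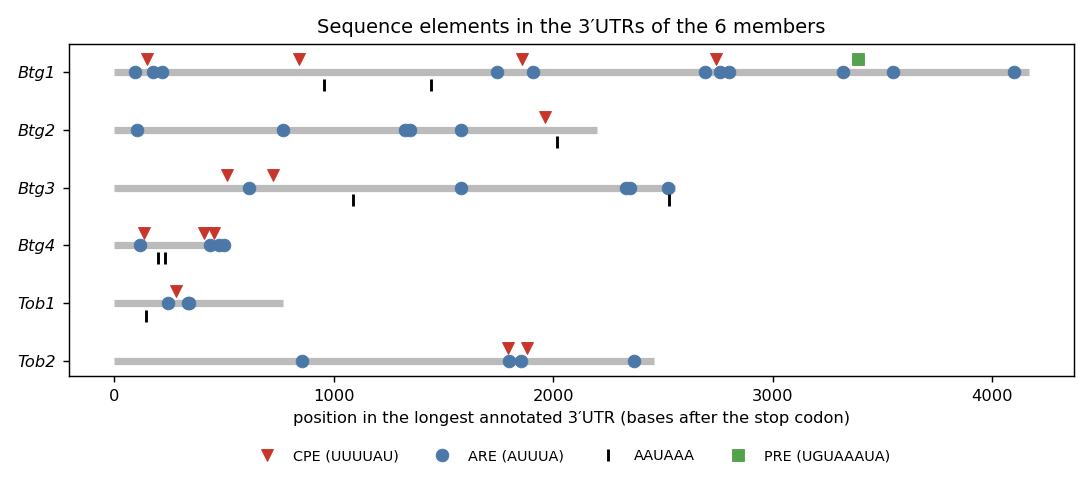
Map to scale of the longest annotated 3′UTR of each BTG and TOB mRNA. The x axis is the position in bases after the stop codon, grey bars are the 3′UTRs, red triangles CPEs, blue circles AREs, black ticks AAUAAA and the green square a PRE. The 3 CPEs of Btg4 fall within 521 bases, whereas the 4 of Btg1 are spread over 4166 bases.

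Library totals ranged from 14943671 to 44092144 counts in control and from 8639444 to 26784110 counts in CNOT7&8 KO oocytes. Levels are given below in CPM, a count relative to the total of its library, with totals scaled by TMM. A gene was tested if 2 or more libraries reached 0.2 CPM, which held for all 6 members and 19241 genes in all. Differences are log2 fold changes of KO over control from edgeR's quasi-likelihood (QL) test, each with its standard error (SE). As CPM is a relative measure of bulk RNA, fewer cells of a type and less RNA per cell cannot be told apart. Of the targeted genes, Cnot8 ranged from 154 to 197 CPM in control and from 33.1 to 36.1 CPM in KO libraries. Cnot7 ranged from 886 to 1049 CPM in control and from 622 to 789 CPM in KO libraries, and its fall did not pass the test under every scaling. Counts over whole genes include exons that remain, so they do not show the deletion itself. By immunoblot, the study found CNOT7 and CNOT8 protein depleted in the KO oocytes. All 14 oocyte markers examined were detected, and their summed level was 22846 to 26785 CPM in control and 19190 to 21955 CPM in KO libraries. At an FDR of 0.05, 7 of the 14 were lower and 2 higher in KO, where 24.1% of all genes tested were lower and 31.2% higher. None changed by 2-fold or more, although Kit was at 50.8% and Ddx4 at 194% of control. Control replicate 1 stood apart from the rest of its group for several CCR4-NOT subunits, and KO replicate 4 for Cnot1.

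In CNOT7&8 KO oocytes, Tob1 mRNA rose more than 4-fold, Btg4 and Btg2 mRNAs fell to 65.0% and 66.0% of control, and Btg1 mRNA rose slightly. Tob2 and Btg3 mRNAs did not pass the test. With a differentially expressed gene (DEG) defined by a false discovery rate (FDR) of at most 0.05 and a change of at least 2-fold, the thresholds of the study's methods, 1 of the 6 members was upregulated and 0 were downregulated by edgeR's QL test, its exact test and DESeq2, with 2 lower at an unadjusted p under 0.05. Over all genes tested, 23.8% were upregulated and 6.56% downregulated by this rule. At an FDR of 0.05 alone, 2 members were higher and 2 lower in KO, where 31.2% of all genes tested were higher and 24.1% lower. The KO libraries lay entirely above the control libraries for 2 members (27.0% of all genes) and entirely below them for 2 (21.4% of all genes). These shares are close to those of the transcriptome as a whole, so the family is described member by member.

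**Figure D2:**
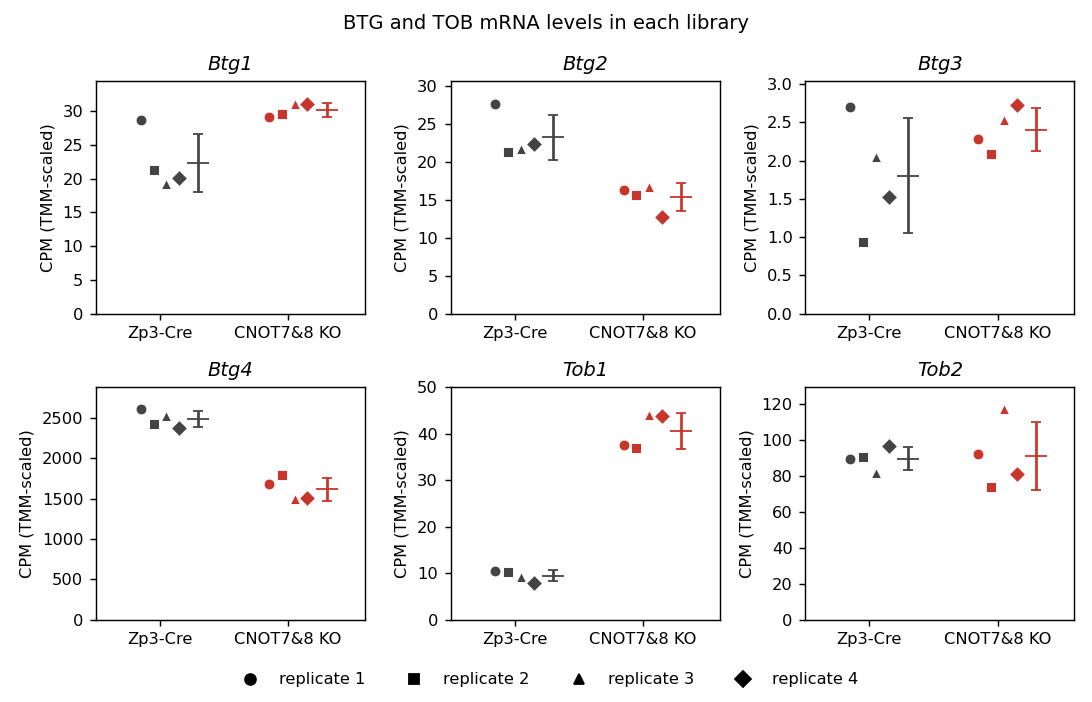
Level of each BTG and TOB mRNA in the 8 libraries, in TMM-scaled CPM on linear axes from 0. Symbols are the 4 replicates of Zp3-Cre control (black) and CNOT7&8 KO (red) oocytes, and the bar beside them is the mean ± SD. KO and control libraries do not overlap for Btg1, Btg2, Btg4 and Tob1, and overlap for Btg3 and Tob2.

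Btg4, the oocyte-specific adaptor, was by far the most abundant member. Its levels were 2608, 2425, 2524 and 2379 CPM in control replicates 1 to 4 and 1681, 1788, 1493 and 1501 CPM in KO replicates 1 to 4. Every KO library was below every control library, and the replicates of a group stayed close to each other. The mean fell from 2484 ± 102 to 1616 ± 144 CPM (SD, n = 4), to 65.0% of control, with a log2 fold change of -0.62 (SE 0.10, QL test, adjusted p = 0.000246). An exact permutation test over the 70 assignments of the libraries gave a two-sided p = 0.0286, the smallest that 4 libraries against 4 allow. Scaled to length, Btg4 was the 16th most abundant of 19126 genes in control and the 19th in KO oocytes. The fold change lay at the 19.4th percentile of all genes tested.

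Because CNOT7 and CNOT8 are the enzymes that Btg4 recruits, its level per length was set against the summed level of their mRNAs in the same library, a ratio that does not depend on library scaling. The ratio was 4.82, 5.28, 5.56 and 5.31 in control and 5.43, 5.47, 5.67 and 5.01 in KO replicates 1 to 4. The groups overlapped, with means of 5.24 ± 0.306 and 5.39 ± 0.277 (SD, n = 4). In KO oocytes the denominator counts reads on exons of the targeted genes that remain.

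Tob1, which joins the deadenylases to poly(A)-binding protein, was the member with the largest change. It was at 10.5, 10.3, 9.25 and 7.87 CPM in control replicates 1 to 4 and at 37.6, 37.0, 44.2 and 43.8 CPM in KO replicates 1 to 4. The lowest KO library was thus more than 3 times as high as the highest control library. The mean rose from 9.47 ± 1.20 to 40.6 ± 3.89 CPM (SD, n = 4), with a log2 fold change of 2.10 (SE 0.14, 95% interval 1.78 to 2.41, QL test, adjusted p = 4.83e-07), or 4.27-fold. The exact permutation test gave a two-sided p = 0.0286. With 108 to 391 counts per control library, counting error was between 5.06% and 9.62% of the value. Of all genes tested, 85.3% had a fold change at or below that of Tob1.

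Tob2, the paralog of Tob1, had no such change. Its levels were 89.4, 90.6, 81.4 and 96.8 CPM in control replicates 1 to 4 and 92.2, 73.9, 117 and 80.8 CPM in KO replicates 1 to 4. KO libraries lay on both sides of the control range, with replicate 3 the highest. The means were 89.6 ± 6.34 and 91.1 ± 19.1 CPM (SD, n = 4), and the log2 fold change of 0.02 had a 95% interval from -0.29 to 0.33 (QL test, adjusted p = 0.899). Without KO replicate 3 it was -0.10, and without control replicate 3 it was -0.02. The ratio of Tob1 to Tob2 per length, which is free of library scaling, was 0.147 to 0.212 in control and 0.682 to 0.983 in KO libraries. Its mean moved from 0.193 ± 0.0305 to 0.828 ± 0.141 (SD, n = 4), and the groups did not overlap.

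Btg2, an inducible member that p53 is known to activate, was lower in KO. Control replicates 1 to 4 had 27.6, 21.3, 21.6 and 22.4 CPM, and KO replicates 1 to 4 had 16.3, 15.6, 16.7 and 12.7 CPM. The groups did not overlap, and control replicate 1 was the highest and KO replicate 4 the lowest of their groups. The mean fell from 23.2 ± 2.95 to 15.3 ± 1.82 CPM (SD, n = 4), with a log2 fold change of -0.61 (SE 0.15, QL test, adjusted p = 0.00446). With library size only in place of TMM it was -0.32 and no longer passed an FDR of 0.05 (QL test, adjusted p = 0.0748).

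Btg1, the closest relative of Btg2, moved in the opposite direction. Its levels were 28.7, 21.3, 19.2 and 20.1 CPM in control replicates 1 to 4 and 29.1, 29.6, 31.1 and 31.1 CPM in KO replicates 1 to 4. Control replicate 1 lay just below the lowest KO library, whereas the other control libraries were clearly lower. The mean rose from 22.3 ± 4.33 to 30.2 ± 1.03 CPM (SD, n = 4), with a log2 fold change of 0.43 (SE 0.15, QL test, adjusted p = 0.0247). The call was lost when control replicate 2, 3 or 4 was left out (log2 fold changes of 0.41, 0.37 and 0.39, QL test, adjusted p = 0.0632, 0.0735 and 0.0692). The ratio of Btg1 to Btg2 per length was 0.486 to 0.570 in control and 0.980 to 1.35 in KO libraries, without overlap.

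Btg3 was the least abundant member. Its counts were 101, 19, 30 and 21 in control replicates 1 to 4 and 21, 38, 41 and 80 in KO replicates 1 to 4, so counting error alone was 9.95% to 22.9% of each value. As levels, these are 2.70, 0.938, 2.04 and 1.53 CPM in control and 2.28, 2.09, 2.53 and 2.72 CPM in KO replicates. The groups overlapped, with means of 1.80 ± 0.749 and 2.41 ± 0.279 CPM (SD, n = 4). The log2 fold change of 0.40 had a 95% interval from -0.28 to 1.07 (QL test, adjusted p = 0.293). It was 0.18 without control replicate 2 and 0.70 without control replicate 1. Cxadr, whose exons overlap those of Btg3 on the opposite strand, rose from 5.95 ± 3.93 to 80.9 ± 12.3 CPM (SD, n = 4), and the strand setting of the counts is not given in the sources used here. The part of Cxadr reads in the Btg3 counts was not tested.

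**Figure D3:**
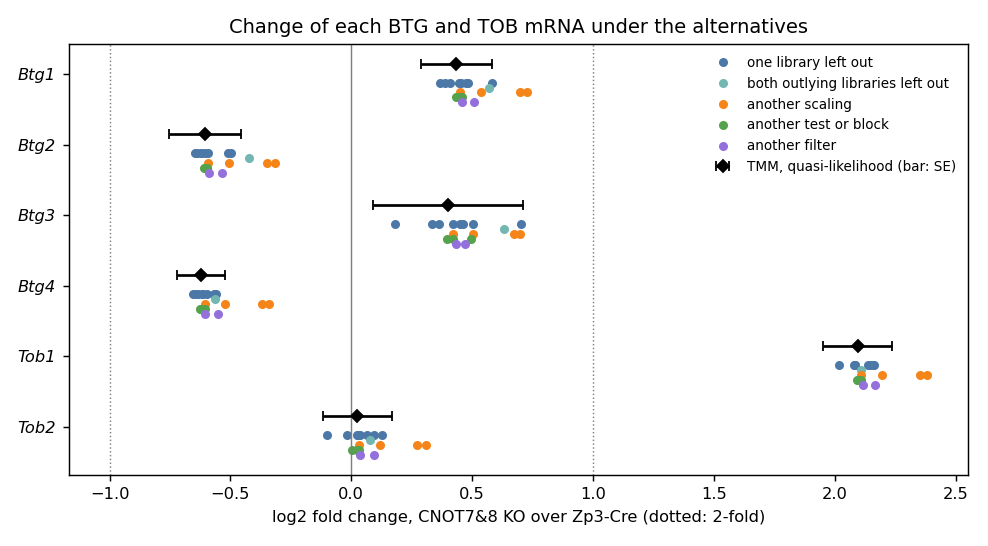
Log2 fold change of each BTG and TOB mRNA, CNOT7&8 KO over Zp3-Cre. Black diamonds with bars are the values and standard errors with TMM scaling, coloured points are the alternatives, and dotted lines mark 2-fold. Tob1 stays between 2.02 and 2.38 in all alternatives and Btg4 between -0.65 and -0.34, whereas Tob2 spans 0.

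The size of the smaller changes depended on how the libraries were scaled. Scaling by library size only shifted the median over all genes tested by 0.29 on the log2 scale, and the value of Btg4 was -0.34 in place of -0.62. Btg4, Btg2, Btg1 and Tob1 kept their direction in each of the 18 alternatives to their test. Btg4 and Tob1 also passed an FDR of 0.05 in each of the 18, and Btg2 in 17 and Btg1 in 15 of them. With control replicate 1 and KO replicate 4 both left out, an alternative added after seeing the data, the members called at 2-fold were again 1 upregulated and 0 downregulated. The log2 fold changes were then 2.11 for Tob1, -0.56 for Btg4, -0.42 for Btg2, 0.57 for Btg1, 0.63 for Btg3 and 0.08 for Tob2, and the same 4 members passed an FDR of 0.05.

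Levels per length, in CPM per kb of the longest annotated transcript, gave the order of the members within each group. In control oocytes the order was Btg4 at 1672, Tob2 at 21.6, Btg2 at 8.46, Btg1 at 4.46, Tob1 at 4.14 and Btg3 at 0.598. Each neighbour was separated from the next in all libraries, except Btg1 and Tob1, whose ranges overlapped. In KO oocytes the order was Btg4 at 1087, Tob2 at 21.9, Tob1 at 17.8, Btg1 at 6.05, Btg2 at 5.58 and Btg3 at 0.798. There the ranges of Tob2 and Tob1 overlapped, as did those of Btg1 and Btg2. Tob1 thus moved from the fifth to the third place, next to Tob2, and Btg2 from the third to the fifth. These levels depend on which transcript is taken for the length.

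The share of each member in the summed level of the family is free of library scaling. Btg4 made up 97.7% ± 0.149 (SD, n = 4) of the family per length in control and 95.4% ± 0.840 in KO oocytes, and every KO library was below every control library. The share of Tob1 rose from 0.242% ± 0.0261 to 1.57% ± 0.273 without overlap. That of Btg1 was 0.260% ± 0.0418 in control and 0.534% ± 0.0595 in KO, that of Tob2 was 1.26% ± 0.128 and 1.95% ± 0.514, and that of Btg3 was 0.0346% ± 0.0132 and 0.0709% ± 0.0136, each without overlap. Btg2 held 0.494% ± 0.0474 and 0.491% ± 0.0607, with overlapping groups. Among the 5 members other than Btg4, Tob1 held 10.6% ± 1.30 in control and 34.2% ± 2.90 in KO, Tob2 held 55.1% ± 3.71 and 41.8% ± 3.93, and Btg2 held 21.5% ± 1.51 and 10.8% ± 1.43. Of these 5, Btg1 held 11.3% ± 1.43 and 11.7% ± 1.14 and Btg3 held 1.52% ± 0.584 and 1.54% ± 0.179, each with overlapping groups. A share rises wherever another member falls, so these values describe composition and not amounts. The level of the 6 mRNAs summed was 2528 to 2767 CPM in control and 1672 to 1946 CPM in KO libraries.

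**Figure D4:**
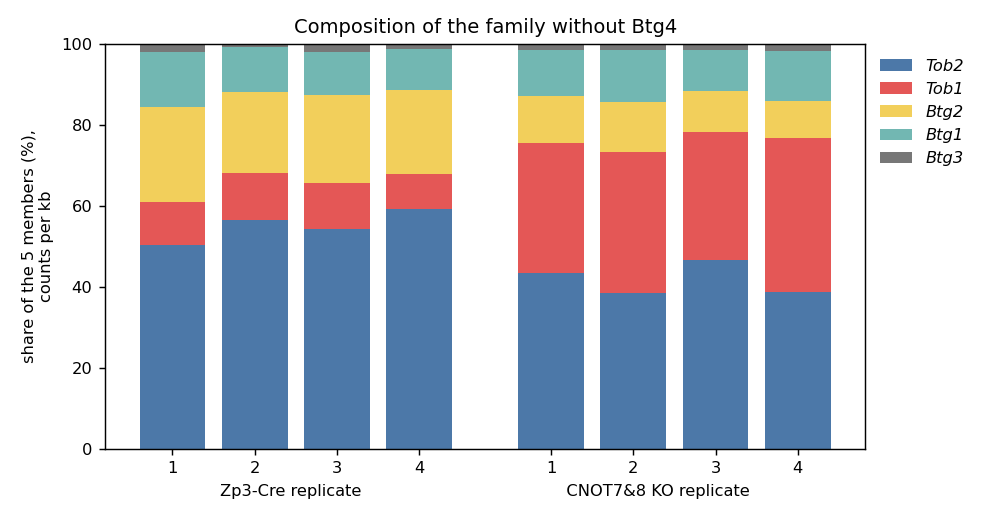
Composition of the family without Btg4 in each library, as the share of counts per kb in percent. Bars are the 4 Zp3-Cre and the 4 CNOT7&8 KO replicates, and colours are the members. Tob1 takes 8.72% to 11.7% of the 5 members in control and 31.8% to 38.0% in KO libraries.

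The table also lists the Btg1-related loci Btg1-ps1 and Btg1-ps2. Btg1-ps2 had 0 counts in all libraries. Btg1-ps1 (ENSMUSG00000068173, chromosome X of GRCm38 from 38013173 to 38018815, minus strand) is annotated as a gene with an unprocessed pseudogene transcript and a coding one. It was at 12.4, 10.7, 9.66 and 8.38 CPM in control replicates 1 to 4 and at 3.47, 5.16, 4.32 and 5.04 CPM in KO replicates 1 to 4. All KO libraries were lower, with a log2 fold change of -1.18 (SE 0.19, QL test, adjusted p = 0.000275), a direction opposite to that of Btg1. For each count of Btg1 there were 0.463 ± 0.0456 counts of Btg1-ps1 in control and 0.149 ± 0.0244 in KO (SD, n = 4), without overlap. The coding transcript of Btg1-ps1 aligned to Btg1 over 492 bases at 86.8% identity, with no identical run longer than 35 bases. The stretch of 30 bases in which they differ most, at bases 348 to 377 of the longest Btg1 transcript, is printed to show how reads can be told apart, with the 10 differing bases in capitals.
Btg1: ccatgatAggCgagatcGCCgcCgcGgTGT
Btg1-ps1: ccatgatTggTgagatcTGTgcTgcAgCAA

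Markers of granulosa and cumulus cells, the somatic cells that surround the oocyte, were examined because Btg1, Btg2 and Tob1 are also expressed in somatic cells. Of 18 markers, 16 passed the filter, 8 were upregulated in KO and 0 downregulated as DEGs by the QL test, and 1 (Cyp19a1) was lower at an FDR of 0.05 alone and at an unadjusted p under 0.05. Of all genes tested, 23.8% were upregulated DEGs and 6.56% downregulated DEGs. The markers' summed level was 136 to 194 CPM in control and 271 to 367 CPM in KO libraries, while the defining marker Foxl2 was at 0.109 CPM or less in each library. The markers highest in control were Cyp19a1 and Nr5a2, which moved in opposite directions. Cyp19a1 fell from 58.5 ± 8.01 to 31.3 ± 6.02 CPM and Nr5a2 rose from 56.6 ± 9.28 to 122 ± 8.26 CPM (SD, n = 4). Of 3 blood markers, Hbb-bs and Hba-a1 had 0 counts throughout, and Ptprc was upregulated but at 1.11 CPM or less. The 3 markers of theca and stroma, of which Col3a1 was downregulated, summed to 1.24 CPM or less. The granulosa DEGs fell into those with and without overlapping groups, a split made after their values were seen. In Inha, Inhba, Gja1 and Fst, KO replicate 4 was at 4.77, 1.63, 10.8 and 1.53 CPM, below the highest control library of each gene, whereas KO replicates 1 to 3 were at 26.5 to 38.4, 5.61 to 7.49, 28.1 to 46.8 and 5.61 to 13.2 CPM. In Fshr, Kitl, Nr5a2 and Ptgs2, every KO library, replicate 4 included, was above every control library. The part of somatic RNA in the values of the 6 members was not tested.

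With TMM scaling of all 8 libraries, the subunits of the CCR4-NOT complex, which the adaptors recruit, were lower or did not pass the test. Of 11 subunits, 2 were downregulated as DEGs and 0 upregulated, and at an FDR of 0.05 alone 7 were lower and 0 higher, with 0 higher at an unadjusted p under 0.05 (edgeR's QL test). Over all genes tested, the shares were 6.56% and 23.8% for DEGs, and 24.1% and 31.2% at an FDR of 0.05 alone. The exact test and DESeq2 also gave 0 upregulated DEGs. Without control replicate 1 and KO replicate 4, 3 subunits were downregulated and 0 upregulated as DEGs. Cnot9 was then higher at an FDR of 0.05 alone (log2 fold change 0.37, QL test, adjusted p = 0.00686). The median log2 fold change of the 11 subunits was -0.42, where that of all genes tested was 0.12. These counts and this median include Cnot7 and Cnot8, the genes targeted by design. Of the 7 subunits that were lower, Cnot1 passed narrowly (QL test, adjusted p = 0.0490), and its groups overlapped. The DEGs were the targeted Cnot8, with a log2 fold change of -2.25 (SE 0.12), and Cnot10, which anchors a module at the N-terminal end of the CNOT1 scaffold, with -1.31 (SE 0.12). Cnot10 was at 97.8 ± 9.52 CPM in control and 39.5 ± 4.30 CPM in KO (SD, n = 4) without overlap. Cnot7 fell by 0.38 on the log2 scale with TMM (QL test, adjusted p = 0.0105), and its change of -0.09 with library size only did not pass (QL test, adjusted p = 0.385). Cnot9, listed in the table under the older symbol Rqcd1, was at 88.9 ± 16.0 CPM in control and 109 ± 11.1 CPM in KO (log2 fold change 0.29, QL test, adjusted p = 0.0913). This change depended on the processing, as it was positive in all 18 alternatives and passed an FDR of 0.05 in 7 of them. With library size only, Cnot9 was higher by 0.58 on the log2 scale (QL test, adjusted p = 0.00206).

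Of 11 genes of known BTG or TOB binding partners, 10 passed the filter, and 2 were upregulated and 3 downregulated as DEGs, also without control replicate 1 and KO replicate 4. The median log2 fold change of the 10 was -0.19. At an FDR of 0.05 alone, 4 were higher and 4 lower. Among all genes tested, 23.8% were upregulated and 6.56% downregulated DEGs, and 31.2% were higher and 24.1% lower at that FDR. The number of partners that were higher is thus near the background. Downregulated DEGs, 3 of 10, were a larger share than the background, in a list chosen with earlier results of these data known. Pabpn1l, a poly(A)-binding protein of oocytes known to bring BTG4 to mRNA, fell from 440 ± 120 to 53.9 ± 10.4 CPM (SD, n = 4), with a log2 fold change of -3.03 (SE 0.22, QL test, adjusted p = 6.12e-07). Its levels were 266, 523, 514 and 458 CPM in control and 55.2, 45.9, 68.2 and 46.4 CPM in KO replicates 1 to 4, so that even the lowest control library was above all KO libraries. Pabpc1l, a cytoplasmic poly(A)-binding protein of oocytes, went from 167 ± 22.4 to 52.6 ± 8.78 CPM (log2 fold change -1.67), and Pabpc4 from 320 ± 12.2 to 148 ± 15.3 CPM (log2 fold change -1.12). In contrast, Pabpc1, their somatic counterpart, rose from 11.2 ± 4.19 to 27.0 ± 8.13 CPM (log2 fold change 1.27, SE 0.27), and Cpeb2, a CPE-binding protein, rose from 2.41 ± 1.07 to 12.1 ± 6.09 CPM (log2 fold change 2.30, SE 0.37). Cpeb3, known to bind TOB1, was higher by a log2 fold change of 0.74 (QL test, adjusted p = 0.00391). Hoxb9 did not pass the filter.

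**Figure D5:**
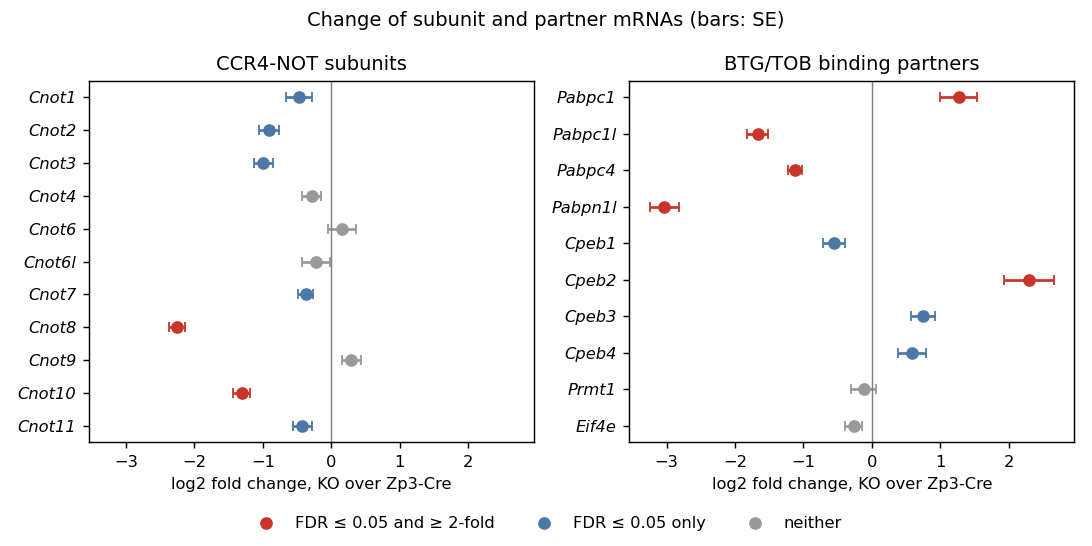
Log2 fold changes, KO over Zp3-Cre, with standard errors as bars, for the CCR4-NOT subunits (left) and the BTG/TOB binding partners that passed the filter (right). Red marks DEGs, blue an FDR of at most 0.05 without a 2-fold change, and grey neither. Cnot8 and Cnot10 are the subunits in red, and Pabpn1l has the lowest value of the partners.

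The genes whose pattern over the 8 libraries was most like that of each member were taken from 8268 candidate genes (mean level 10 CPM or more) by Pearson's r of log2 CPM. For Tob1 these were Tmeff2 (r = 0.998) and Serpinb1a (r = 0.997), with log2 fold changes of 3.20 and 5.50. For Btg4 they were Me2 and Ppa2 (r = 0.998 and 0.997), with log2 fold changes of -0.62 and -1.12. Tspyl4 and Inpp5b were the nearest to Btg1 (r = 0.989 and 0.988), and l7Rn6 and Polr3c to Btg2 (r = 0.973 for each). Pcdh15 and Synm were the nearest to Btg3 (r = 0.978 and 0.948), and Map3k12 and Fbxl19 to Tob2 (r = 0.938 and 0.905). The points share 2 genotype groups and the depth of each library, and r is given as a description.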

How the data were processed

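RNA of GV oocytes was measured in 8 libraries. Libraries were stranded and rRNA was depleted, per the labels and the study's methods, which name a total RNA kit and an mRNA kit, respectively. Reads were mapped by the authors to GRCm38 with STAR 2.6.1d, run within nf-core/rnaseq. The deposited values are whole-number counts of reads for each gene and library, neither normalized nor pooled. The counting tool run in that workflow, its annotation release and its strand setting are not given in the sources used here. Column names gave the genotype and replicate of each sample. The 6 members and all gene lists were chosen with earlier results of these data known.

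The analysis used edgeR 4.0.16 (R 4.3.3). Genes that reached 0.2 CPM in 2 or more libraries entered the quasi-likelihood test after TMM scaling, with Benjamini-Hochberg adjustment over all 19241 genes. DEGs had an FDR of at most 0.05 and a change of at least 2-fold. Single values were compared by exact two-sided permutation tests on log2(CPM + 0.1). Alternatives were edgeR's exact test, DESeq2 1.42.0, other scalings and filters, the replicate number as a block, and leaving out each library. The fits were tested on simulated data, in which 200 of 19241 genes changed by 2 on the log2 scale, up and down in equal numbers. The QL test recovered 194 of them with 14 false calls. In the real data many more genes changed, mostly upward, so this simulation does not test the choice of scaling. Of the gene identifiers, 98.0% were found in GENCODE vM21 (GRCm38), which supplied coordinates, lengths (longest transcript) and 3′UTR sequences. A total of 3 counts makes 0.068 to 0.347 CPM. Floors and intervals of counts cover counting error only, because reads copied by PCR do not count separate molecules.

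Named genes were the 6 members, Cnot7 and Cnot8, the DEGs of 2 lists (CCR4-NOT subunits and binding partners), the 2 genes most like each member (predicted Gm and Rik genes left out) and loci named after a member. Cnot9 and Cpeb3, and the granulosa genes given by value, were named after their values were seen.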

Additional observations from a re-analysis of the deposited data

Results flagged for a closer look

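Among 70 groups of 4 libraries examined (members, subunits, partners, Btg1-ps1, Cxadr and the family shares), 11 had 1 library that exceeded Dixon's critical value for its gap to the other 3, where chance gives about 3.5. None of the 11 was a level or a share of a BTG or TOB mRNA. The library was control replicate 1 in 9 of them and KO replicate 4 in 2.

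In control replicate 1, levels were high for Cnot1 (446.4 CPM, against 277 to 301.9 in the other control libraries), Cnot2 (290.2, against 208.5 to 208.6), Cnot4 (135.8, against 94.99 to 97.13), Cnot6 (70.47, against 38.92 to 42.18), Cnot6l (516.2, against 294.3 to 331.6), Cnot7 (1049, against 885.9 to 900.2), Cpeb4 (113.0, against 71.85 to 76.45) and Eif4e (375.9, against 286.1 to 292.2). Cnot10 was low there (83.54, against 101.8 to 103.5). In KO replicate 4, Cnot1 (326.1 CPM, against 197.7 to 216.6) and Cpeb3 (128.2, against 83.07 to 86.84) were high. The cause was not tested.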

How the results depend on the processing

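Direction held for Btg1, Btg2, Btg3, Btg4, Tob1, Cnot7 and Cnot8 in all 18 alternatives, and Tob2 turned to -0.101 without KO replicate 3 and -0.019 without control replicate 3. Leaving out 1 library gave log2 fold changes of 0.369 to 0.582 for Btg1, -0.101 to 0.129 for Tob2, 0.182 to 0.701 for Btg3, -0.646 to -0.497 for Btg2, -0.653 to -0.559 for Btg4 and 2.02 to 2.16 for Tob1, and Btg1 lost its call in 3 of these. With library size only, Btg2 (-0.316) and Cnot7 (-0.092) did not pass an FDR of 0.05, nor did Cnot7 with TMM on genes of at least 10 CPM (-0.123). Cnot9, which did not pass with TMM, was higher at an FDR of 0.05 in 7 of its 18 alternatives. All genes had 4582 DEGs up and 1263 down, against 587 down with library size only, 628 down with TMM on genes of at least 10 CPM, and 2882 up with at least 1 CPM in 4 libraries. With library size only 90.6% of DEGs were upregulated, 89.7% with TMM on genes of at least 10 CPM, and 78.4% with TMM. At an FDR of 0.05 alone there were 4631 genes lower, 2 members higher and 2 lower, 7 subunits lower and 4 partners higher.

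Without division by length, the differences in family share (KO minus control, in percentage points) were 0.848 for Btg1, 0.0675 for Btg3, -4.52 for Btg4, 1.92 for Tob1 and 1.71 for Tob2, in place of 0.274, 0.0363, -2.33, 1.33 and 0.684, and 5 neighbouring pairs in KO did not overlap in place of 3. Of the genes like a member, Map3k12 was -0.052 without KO replicate 3 and -0.036 without control replicate 3. Fbxl19 turned positive in 8 alternatives, at 0.267 with library size only, 0.231 with TMM on genes of at least 10 CPM, 0.078 with upper quartile, 0.052 with at least 1 CPM in 4 libraries, 0.054 without control replicate 1 and KO replicate 4 together, and up to 0.075 with 1 library left out (-0.088 to 0.075 over all such fits).

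Deviations of same-numbered libraries correlated at -0.12 to 0.11, and those of differently numbered libraries at -0.33 to 0.37. The highest value was that of control replicate 1 with KO replicate 4. The replicate numbers thus gave no sign of pairing in these values, which do not show how the libraries were prepared. With the replicate number as a block, Tob1 changed by 2.10, Btg4 by -0.624, Btg2 by -0.60 and Btg1 by 0.456, with 4316 DEGs up and 1254 down, and no member's call changed. Depth limits Btg3, whose counts were 19 to 101.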
